A study of Mus musculus with 21 samples.

Results

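The ribosome-bound RNA of endothelial cells (ECs) was compared between the forebrain and the kidney of mouse embryos at embryonic day 14.5. The 3 brain EC and 3 kidney EC translatome libraries were taken by their labels, and they are 6 of the 21 samples of the series. Both EC groups carried the genotype Cdh5CreERT2+/-;Gt(ROSA)26Sor-mCherry-Rpl10a+/-, in which tamoxifen, given by gavage to the mother, lets the Cre recombinase of Cdh5-expressing cells switch on an mCherry-tagged Rpl10a ribosomal protein. The tag is driven by the CAGGS promoter from the Gt(ROSA)26Sor locus, in a line founded from a single targeted clone, and tagged ribosomes are pulled down with the RNA they carry, a method called translating ribosome affinity purification (TRAP). As organ references served 3 brain and 3 kidney translatome libraries of Sox2Cre+/-;Gt(ROSA)26Sor-mCherry-Rpl10a+/- embryos of the same age, in which all cells of the embryo proper carry the tag. Each library was a pool, of 2 forebrains for brain EC, 6 kidneys for kidney EC, 2 forebrains for the brain translatome and 4 kidneys for the kidney translatome. Some genes were also held against Emx1-lineage translatome libraries, from Emx1Cre+/-;Gt(ROSA)26Sor-mCherry-Rpl10a+/- forebrains of the same age. Transcriptome libraries, made of total RNA from the organs of the Sox2Cre+/- embryos, were a further reference. The brain EC libraries were sequenced in one lane and the kidney EC libraries in another, so lane and organ cannot be told apart. The organ translatomes were sequenced in other lanes than the EC libraries. In every comparison of EC with its own organ, cell type therefore cannot be told apart from lane or Cre driver. The question was which ribosome-bound RNAs set the ECs of the 2 organs apart, and, for each difference, whether the RNA was also enriched in ECs over its own organ or could have been carried over from the surrounding tissue.

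Endothelial cells line all blood vessels, but they differ with the organ they supply. Brain ECs form the blood-brain barrier: they are sealed by tight junctions, carry few vesicles and fenestrae, and take up glucose, amino acids and other nutrients through dedicated transporters, a state known to depend on Wnt/beta-catenin signalling during development. Kidney capillaries are in large part fenestrated, and their fenestrae are bridged by diaphragms that contain the protein Plvap. A pull-down from a whole organ always brings along some RNA of cells that lack the tag, so a neural RNA in brain EC libraries or a nephron RNA in kidney EC libraries need not come from ECs.

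Each brain EC library held 53530594 to 62482261 gene reads and each kidney EC library 33237550 to 45166528. Levels are given in RPKM, reads scaled by transcript length and library size, as mean ± SD of 3 libraries, while fold changes and adjusted p-values come from edgeR fits to the reads (threshold 0.001). The p-values measure the spread between these pools. Libraries of one EC group resembled each other closely (Pearson's r across genes 0.997 to 0.998) and resembled those of the other group less (0.932 to 0.937). The ribosomal RNA precursor Rn45s took 0.814 to 1.08% of the reads in brain EC and 1.37 to 1.93% in kidney EC. Its part in the differences below was not tested. The endogenous Rpl10a row, whose reads include the tag only as far as both share sequence, held 5.25 ± 0.490 RPKM in brain EC and 7.40 ± 1.33 RPKM in kidney EC (adjusted p = 0.026).

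The labels were first checked against genes that mark ECs everywhere. All 24 pan-endothelial genes were over 2-fold higher in brain EC than in the brain translatome, as were 14.7% of all genes tested there, and all 24 were over 2-fold higher in kidney EC than in the kidney translatome (6.66% of all genes). The median of these genes' log2 fold changes over the organ was 4.52 in brain and 3.03 in kidney. Cdh5, the endothelial cadherin whose promoter drives the Cre, stood at 368, 348 and 393 RPKM in the brain EC libraries and at 364, 373 and 339 in the kidney EC libraries, and these ranges overlapped. Its level in the organ translatomes was 16.6 ± 1.55 RPKM in brain and 51.2 ± 0.106 in kidney. Between the EC groups, 11 of the 24 pan-endothelial genes were higher in brain EC and 3 in kidney EC, beside 20.1% and 16.9% of all genes. Their median log2 fold change was 0.33, against 0.01 for all genes. Ramp2, a receptor partner for adrenomedullin, was 2.44-fold higher in brain EC, and the sialomucin Emcn was 2.37-fold higher in kidney EC.

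Markers of the surrounding tissue were used to estimate carry-over. Whether their reads in the EC libraries came from cells without the tag was not tested. For the 20 neural markers, the mean RPKM in brain EC was a median of 0.236 of that in the brain translatome, with quartiles at 0.172 and 0.292. Library by library this median was 0.257, 0.208 and 0.246. The share for 19 nephron, ureteric and podocyte markers with at least 5 RPKM in the kidney translatome was 0.203 in kidney EC, with quartiles at 0.152 and 0.269 and library medians of 0.209, 0.168 and 0.232. Summed over the neural list, brain EC held 1064 to 1315 RPKM and kidney EC 156 to 166, of which Nes, which ECs also express, gave 142. Tubb3, a tubulin of neurons, stood at 324, 236 and 308 RPKM in brain EC, below its 1311, 1268 and 1240.5 in the brain translatome and far above 0.0915, 0.0355 and 0.226 in kidney EC. Nes was the neural marker with the highest ratio, at 5.44. On the kidney side the podocyte gene Nphs1 went against its list, with a ratio of 2.41, while the transcription factors of the same list were at a fraction of their organ level.

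**Figure D1:**
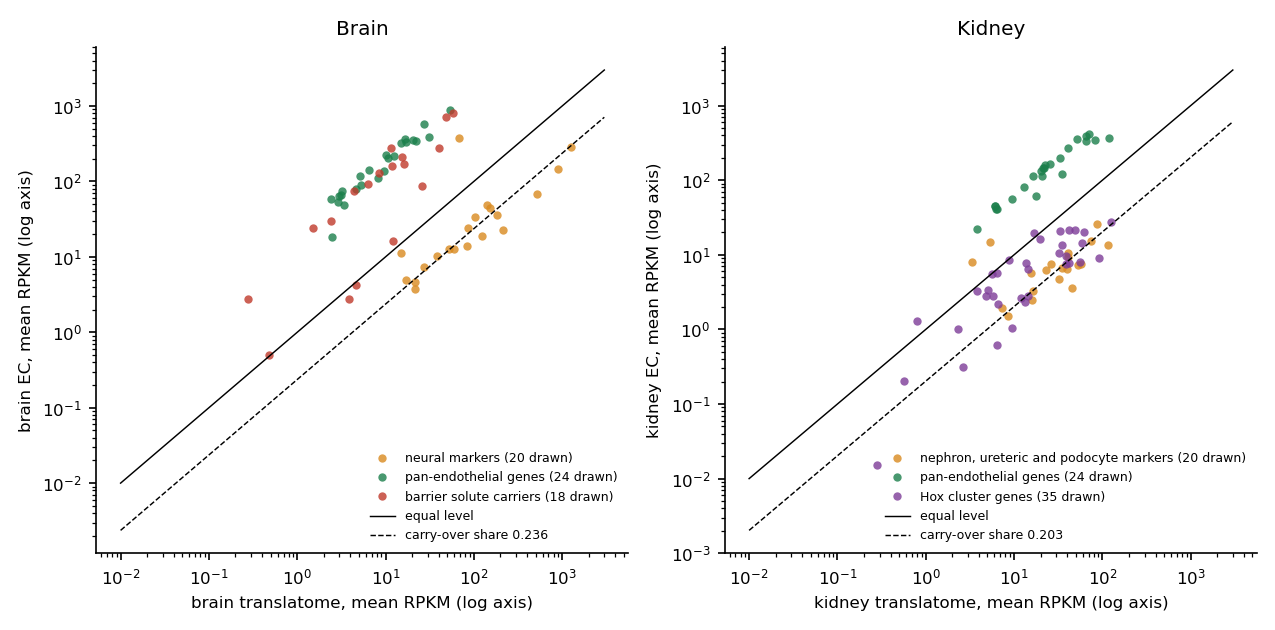
Mean RPKM in the EC libraries (vertical, log axis) against mean RPKM in the translatome of the same organ (horizontal, log axis), for brain on the left and kidney on the right, each point a gene with over 0.01 RPKM on both axes. Neural markers lie around the dashed line at 0.236 and nephron, ureteric and podocyte markers around that at 0.203, and pan-endothelial genes lie above the solid line of equal level. Hox cluster genes spread from below the dashed line to just above the solid line, with ratios of 0.0956 to 1.17 for the 32 with at least 1 RPKM in the kidney translatome.

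Of 19238 genes tested between the EC groups, 3876 (20.1%) were higher in brain EC and 3251 (16.9%) were higher in kidney EC at an adjusted p under 0.001. With a fold change over 4 and a mean of at least 5 RPKM in the higher group, 702 genes (3.65% of those tested) were left for brain EC and 206 (1.07%) for kidney EC. These genes were then held against their own organ. Of the 702, 203 (1.06% of those tested) were over 2-fold higher in brain EC than in the brain translatome and are called the brain endothelial list, 407 were lower in brain EC than in the brain translatome, and 92 lay in between. Of the 206, 83 (0.431% of those tested) formed the kidney endothelial list, 62 were lower in kidney EC than in the kidney translatome and 61 lay in between. Thus 58.0% of the large differences in favour of brain EC, and 30.1% of those in favour of kidney EC, were in RNAs that were lower in EC than in the organ, beside 21.4% of all genes for brain and 15.0% for kidney. The median ratio of EC to organ RPKM was 7.18 in the brain endothelial list and 3.80 in the kidney endothelial list.

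**Figure D2:**
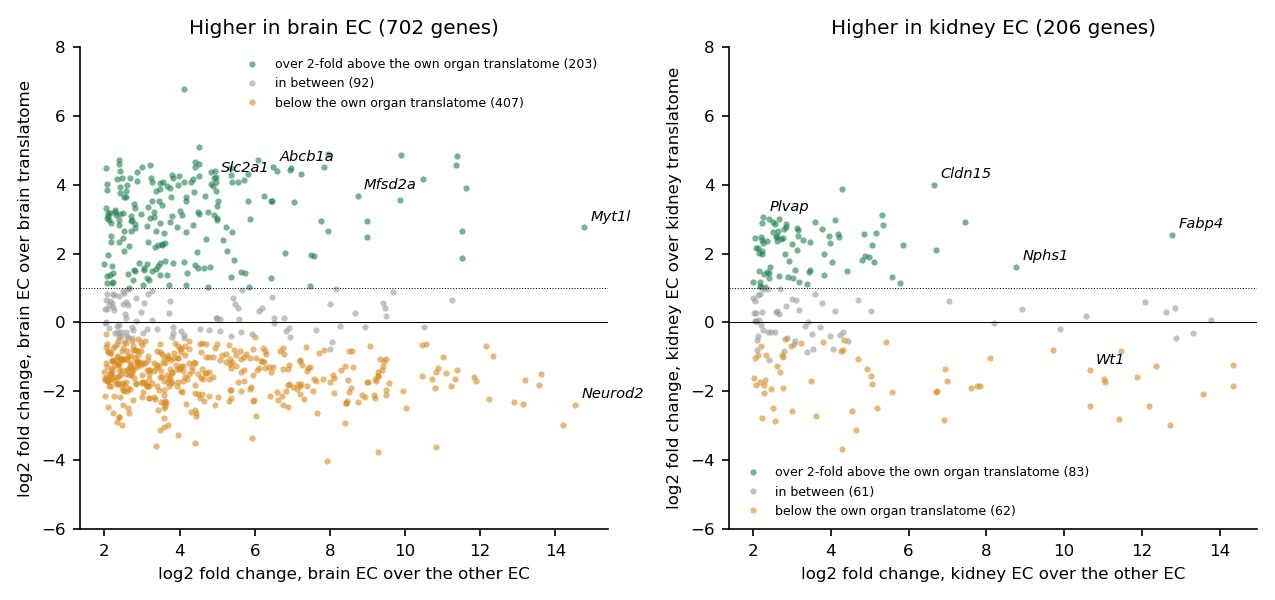
Each point is a gene over 4-fold different between brain EC and kidney EC with at least 5 RPKM, with its log2 fold change between the ECs (horizontal) and its log2 fold change over the translatome of its own organ (vertical), 702 genes on the left and 206 on the right. The 407 and 62 points in orange differ between the ECs but lie below their own organ, and the dotted line marks 2-fold.

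The 3 genes that mark forebrain ECs by their transporters or their lack of fenestrae all passed the test. Slc2a1, which encodes the glucose transporter of the blood-brain barrier (GRCm38 chromosome 4, 119108745 to 119137330), stood at 698, 713 and 754 RPKM in the brain EC libraries and at 24.6, 25.2 and 23.9 in the kidney EC libraries. Every brain EC library was above every kidney EC library, and the fold change was 30.3 (log2 fold change 4.92, SE 0.08, adjusted p = 2.3e-11). Slc2a1 was 18.1-fold higher in brain EC than in the brain translatome, whereas kidney EC (24.6 ± 0.633 RPKM) and the kidney translatome (30.0 ± 1.30) were not set apart by the test (adjusted p = 0.35). Abcb1a, the efflux pump P-glycoprotein (chromosome 5, 8567091 to 8748575), was read at 15.6, 14.3 and 17.6 RPKM in brain EC and 0.168, 0.160 and 0.210 RPKM in kidney EC, again without overlap (log2 fold change 6.50, SE 0.13, adjusted p = 5.8e-11). It was 22.7-fold above the brain translatome. Plvap (chromosome 8, 71497753 to 71511806) went the other way, with 78.1, 80.6 and 94.4 RPKM in brain EC and 439.5, 460.2 and 357 in kidney EC, a 4.81-fold difference in favour of kidney (log2 fold change -2.27, SE 0.11, adjusted p = 2.5e-08). It was enriched over the organ in both, 19.5-fold in brain and 8.33-fold in kidney.

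**Figure D3:**
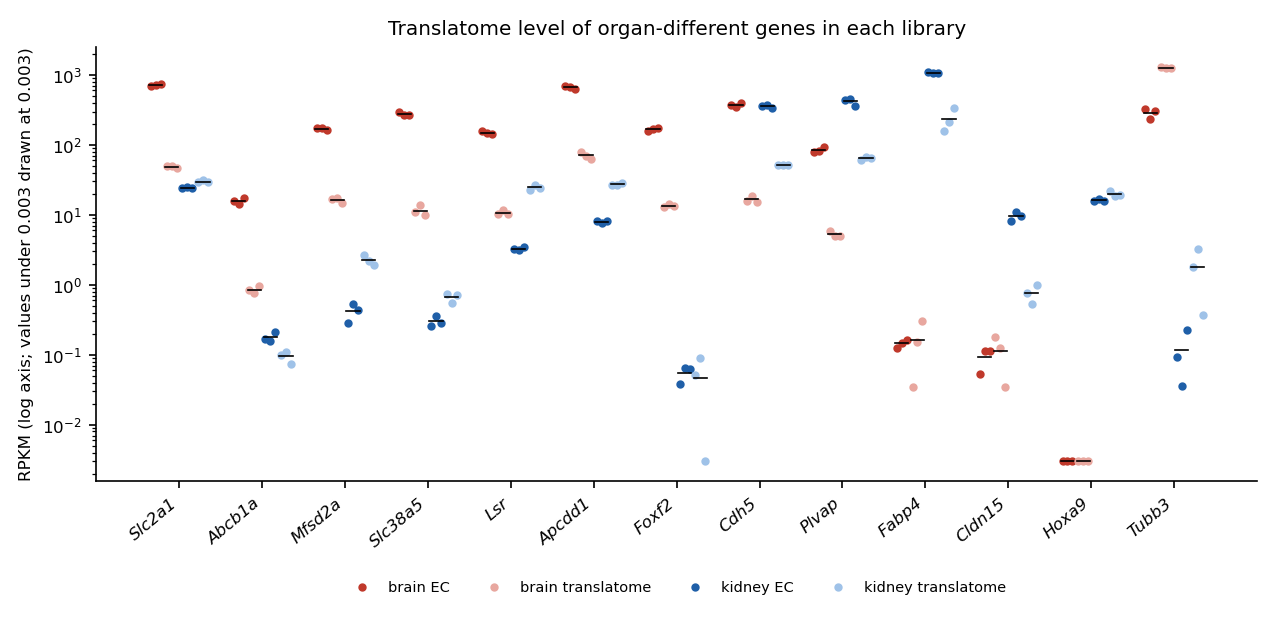
RPKM on a log axis of 13 genes in each of the 3 libraries of brain EC, brain translatome, kidney EC and kidney translatome, with a black line at each mean and values under 0.003 drawn at 0.003. The 7 genes on the left are highest in brain EC, Cdh5 is alike in both ECs, Plvap, Fabp4 and Cldn15 are highest in kidney EC, Hoxa9 is at about the same level in kidney EC and kidney translatome, and Tubb3 is highest in the brain translatome.

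Promoter windows of RefSeq genes, from 250 bases before to 50 after a transcription start on GRCm38.p6, were searched for the letters CTTTGA of TCF/LEF factors, the partners of beta-catenin, and for ACGTG, the core of hypoxia response elements, on both strands. Of the barrier genes of the brain endothelial list that were looked up, the windows of Abcb1a, Mfsd2a and Lsr are shown because they held the TCF/LEF letters, and that of the marker gene Slc2a1 for comparison, while those of Cldn5, Ocln, Slc38a5 and Slco1c1 held none. Capitals mark CTTTGA or its complement TCAAAG, and ACGTG or its complement CACGT. All 4 run 5′ to 3′ along the gene. They are Slc2a1 (chr4:119108495-119108794, + strand), Abcb1a (chr5:8566841-8567140, + strand), the lipid transporter gene Mfsd2a (chr4:122961139-122961438, - strand) and the tricellular junction gene Lsr (chr7:30973420-30973719, - strand).
Slc2a1: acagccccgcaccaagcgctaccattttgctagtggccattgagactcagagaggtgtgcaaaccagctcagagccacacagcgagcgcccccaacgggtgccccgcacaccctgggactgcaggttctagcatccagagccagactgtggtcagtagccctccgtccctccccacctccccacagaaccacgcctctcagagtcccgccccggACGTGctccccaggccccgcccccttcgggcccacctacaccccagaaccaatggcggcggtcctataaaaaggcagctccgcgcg
Abcb1a: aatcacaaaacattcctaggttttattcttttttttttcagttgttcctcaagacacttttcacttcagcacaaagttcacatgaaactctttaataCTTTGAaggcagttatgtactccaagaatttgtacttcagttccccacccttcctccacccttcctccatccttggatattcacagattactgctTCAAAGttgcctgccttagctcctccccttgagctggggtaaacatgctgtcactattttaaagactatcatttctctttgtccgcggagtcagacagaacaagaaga
Mfsd2a: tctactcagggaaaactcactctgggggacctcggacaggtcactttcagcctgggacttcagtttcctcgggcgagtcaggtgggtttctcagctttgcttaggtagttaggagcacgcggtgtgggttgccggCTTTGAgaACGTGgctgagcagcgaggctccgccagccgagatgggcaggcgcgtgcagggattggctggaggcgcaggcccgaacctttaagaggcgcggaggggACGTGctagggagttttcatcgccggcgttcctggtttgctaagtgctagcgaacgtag
Lsr: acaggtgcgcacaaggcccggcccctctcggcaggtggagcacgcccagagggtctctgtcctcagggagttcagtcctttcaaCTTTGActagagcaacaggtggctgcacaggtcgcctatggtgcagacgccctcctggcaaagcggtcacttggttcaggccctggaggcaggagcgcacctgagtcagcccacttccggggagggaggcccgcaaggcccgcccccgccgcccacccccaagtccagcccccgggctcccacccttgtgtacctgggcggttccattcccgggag

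The Abcb1a window held the TCF/LEF letters at 2 places, 153 and 58 bases before the start, the Mfsd2a and Lsr windows at 1 place each, and the Slc2a1 window at none. Across the brain endothelial list, 33 of 206 windows held them (16.0%), the same share as among all 32851 windows (16.0%), and 5 of 68 windows of the kidney endothelial list did (7.4%). By gene, 22.8% of the brain list genes with a window and 8.5% of such kidney list genes held the letters, against 18.2% of all genes. The ETS letters CCGGAA were in 11.2% of the brain list windows and 10.3% of the kidney list windows, against 14.9% of all. For the SOX letters ACAATG the shares were 7.8%, 8.8% and 12.6%, and for ACGTG they were 18.0%, 20.6% and 19.6%. A match of letters in this window is a description and not a bound site.

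Solute carriers of the barrier lay mostly on the brain side. Of 18 tested, 16 were higher in brain EC and 1 in kidney EC, beside 20.1% and 16.9% of all genes. The median log2 fold change was 3.77, against 0.01 for all genes. In brain EC, 14 of the 18 were over 2-fold above their organ (14.7% of all genes), and 12 were in the brain endothelial list (1.06% of all genes). In kidney EC, 3 of 18 were over 2-fold above the organ (6.66% of all genes). Slc7a5, the light chain of the large neutral amino acid transporter and among the most abundant RNAs of the brain endothelial list, stood at 811, 820.4 and 775 RPKM in brain EC and at 19.9, 22.4 and 16.3 in kidney EC, a 42.4-fold difference without overlap. Slc38a5, a glutamine transporter, was nearly absent from kidney EC, with 0.255, 0.362 and 0.288 RPKM against 293, 269 and 263 in brain EC. Slco1c1, which carries thyroid hormone, gave 13, 4 and 8 reads in the kidney EC libraries and 19786, 13702 and 18156 in the brain EC libraries. Mfsd2a, which carries lysolipids with docosahexaenoic acid and restrains transcytosis, reached 169.9 ± 7.21 RPKM in brain EC and 0.417 ± 0.129 in kidney EC. In kidney its ratio ran the other way, since kidney EC was lower than the kidney translatome at 2.25 ± 0.351 RPKM (adjusted p = 3e-05). The organic anion transporter gene Slc22a8 (7.23 on the log2 scale) and the glutamine transporter gene Slc38a3 (4.83) were further members of the list. The iron exporter gene Slc40a1 was 7.30-fold higher in brain EC, although the whole kidney translatome (16.2 ± 0.395 RPKM) held more of it than the whole brain translatome (4.35 ± 0.392).

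Slc16a1, the lactate transporter, was the one solute carrier of the list that was higher in kidney EC, with 4.61, 4.16 and 4.08 RPKM in brain EC and 14.7, 14.1 and 15.2 in kidney EC (log2 fold change -1.73, SE 0.08, adjusted p = 1.3e-08). It was enriched over the organ in neither (adjusted p = 0.082 in brain and 0.019 in kidney). Slc5a6, a vitamin transporter, did not pass the test, at 2.76 ± 0.216 and 2.72 ± 0.172 RPKM.

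Among 6 receptors linked to transport across the barrier, 4 were higher in brain EC and 2 in kidney EC (20.1% and 16.9% of all genes). The transferrin receptor gene Tfrc was 2.73-fold higher in brain EC (30.3 ± 6.86 against 11.4 ± 0.825 RPKM), and it was above the organ in brain and below it in kidney, so the organ ratio differed by 2.61 on the log2 scale (adjusted p = 1.5e-09). Lrp8 was 21.4-fold higher, yet it was also high in the brain translatome (41.1 ± 3.78 RPKM), and its ratio over the organ differed by only 1.04. The insulin receptor gene Insr (1.49) and Lrp1 (1.74) were also higher in brain EC.

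Of 8 ABC efflux transporters, 4 were higher in brain EC and 2 in kidney EC (20.1% and 16.9% of all genes), with a median log2 fold change of 0.87. Abcg2, the breast cancer resistance protein pump, was 2.60-fold higher in brain EC (119 ± 6.38 against 47.2 ± 1.60 RPKM), and the cholesterol exporter gene Abca1 was 6.96-fold higher. Abcc1 was 4.02-fold higher in kidney EC, where its level was 8.07 ± 0.433 RPKM. The paralog Abcb1b, which also encodes a P-glycoprotein, stood at 0.208, 0.285 and 0.269 RPKM in brain EC and 0.296, 0.302 and 0.386 in kidney EC. Every kidney EC library was above every brain EC library, but the test did not set the groups apart (log2 difference -0.33, SE 0.22, adjusted p = 0.23), and reads shared by both paralogs could have been placed with either.

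The tight junction list split in both directions. Of 15 genes, 6 were higher in brain EC and 5 in kidney EC (20.1% and 16.9% of all genes), and the median log2 fold change was 0.10. Cldn5, the main endothelial claudin and the most abundant RNA of the brain endothelial list, stood at 1349.7, 1291 and 1147 RPKM in brain EC and at 328, 354 and 270.3 in kidney EC, a 4.11-fold difference. Some genes of epithelial and tricellular junctions were on the same side, while Cgn and Cldn15 were on the kidney side. Ocln, which encodes occludin, was 19.8-fold higher in brain EC (25.3 ± 1.65 against 1.32 ± 0.160 RPKM), Lsr, a tricellular junction receptor, was 46.7-fold higher (149.5 ± 6.48 against 3.29 ± 0.189) and its partner Marveld2 was 3.84-fold higher. All 3 of these genes were below the organ in kidney EC, with ratios of 0.180, 0.134 and 0.280, beside a share of 0.203 for the nephron, ureteric and podocyte markers, and above it in brain EC, with ratios of 13.9, 13.9 and 11.0. Jam2 was 11.2-fold higher in brain EC, but the whole organs differed in the same direction, and the difference in organ ratio did not pass the test (adjusted p = 0.0056). The scaffold gene Tjp1 stood at 127, 133 and 106 RPKM in brain EC and 112, 115 and 125 in kidney EC, and the test did not set the groups apart (log2 difference 0.10, SE 0.10).

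On the kidney side, Cldn15, a claudin that forms cation pores, was at 0.0523, 0.112 and 0.113 RPKM in brain EC and 8.24, 10.8 and 9.71 in kidney EC. Kidney EC was 16.1-fold above the kidney translatome for this gene. Jam3 was 2.63-fold higher in kidney EC, and the junction gene Cgn, which encodes cingulin, was 5.31-fold higher.

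The Wnt/beta-catenin list held several target and feedback genes that were higher in brain EC, while its receptors went both ways. Of 25 pathway genes, 12 were higher in brain EC and 8 in kidney EC (median log2 fold change 0.48), beside 20.1% and 16.9% of all genes. Apcdd1, a membrane inhibitor that the pathway induces, stood at 703, 676 and 629 RPKM in brain EC and 8.09, 7.56 and 8.12 in kidney EC, a 86.9-fold difference without overlap. The transcription factor genes Lef1 (51.0 ± 2.51 against 4.50 ± 0.572 RPKM) and Tcf7 (64.1 ± 0.861 against 4.84 ± 0.513) were 11.6-fold and 13.6-fold higher in brain EC. The feedback inhibitors Axin2 and Nkd1 were 5.26-fold and 14.2-fold higher. Apcdd1, Lef1, Tcf7 and Nkd1 were in the brain endothelial list. Axin2 was not, since it did not pass as over 2-fold above the brain translatome and lay in between. For these 5 genes kidney EC lay below the kidney translatome, with ratios from 0.184 for Nkd1 to 0.360 for Lef1, and the difference in organ ratio ranged from 1.93 for Axin2 to 5.53 for Tcf7 on the log2 scale. The median of that difference was 1.62 over the pan-endothelial genes. The whole kidney translatome held 22.4 ± 0.521 RPKM of Tcf7, more than the whole brain translatome at 6.23 ± 0.863, so the order of the ECs was the reverse of the order of the organs. Other genes known as targets went the other way, since the cyclin gene Ccnd1 was 2.22-fold and the receptor ligase gene Rnf43 2.23-fold higher in kidney EC.

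Among the receptors, Fzd4, a receptor for Norrin and Wnt ligands, was 2.34-fold higher in kidney EC (17.2 ± 1.02 against 41.5 ± 4.96 RPKM), and Fzd6 was 3.89-fold higher in brain EC. Gpr124, a Wnt7 co-receptor needed for brain vessels, stood at 79.9, 89.9 and 72.2 RPKM in brain EC and 62.6, 62.4 and 54.5 in kidney EC. Its adjusted p was 0.0011, just over the threshold, and 0.00053 with the replicate number as a block. Ctnnb1, beta-catenin itself, was at 702 ± 26.8 and 592 ± 31.2 RPKM (adjusted p = 0.0089). Lgr4, a receptor for R-spondins, was 11.4-fold higher in kidney EC but was not above its organ there (adjusted p = 0.0014).

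**Figure D4:**
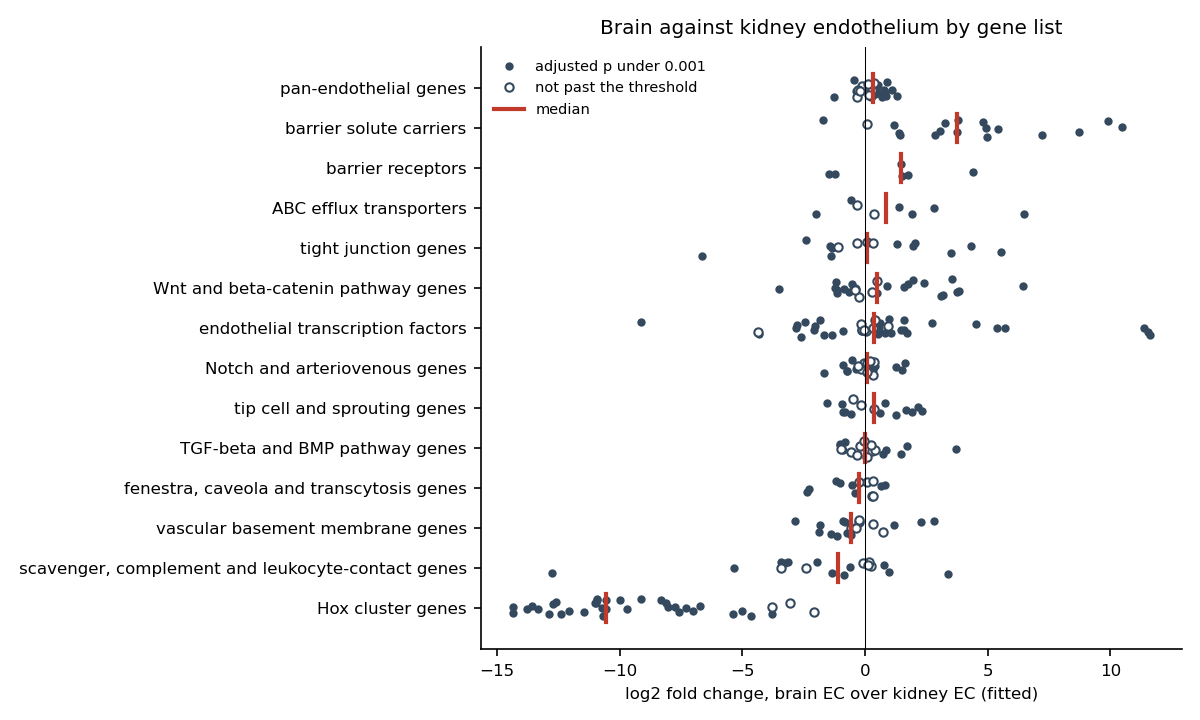
Fitted log2 fold change of brain EC over kidney EC (horizontal) for every tested gene of 14 lists, filled where the adjusted p was under 0.001, open where not, with the list median in red. The barrier solute carriers lie to the right of 0 except Slc16a1, the tight junction, Wnt and transcription factor lists spread to both sides, and the Hox cluster genes lie to the left.

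Transcription factors differed in both directions. Of 38 rows tested, 17 were higher in brain EC and 12 in kidney EC, beside 20.1% and 16.9% of all genes. The brain endothelial list held 7 of them and the kidney endothelial list 3, beside 1.06% and 0.431% of all genes. Several forkhead genes were on the brain side. Foxf2, known for its role in brain vessels, stood at 160.4, 171 and 173 RPKM in brain EC, and the kidney EC libraries held only 4, 5 and 6 reads of it. It was 15.1-fold above the brain translatome. Foxq1 (84.8 ± 5.56 against 1.66 ± 0.477 RPKM) and Foxf1 (9.50 ± 1.64 against 0.235 ± 0.0233) followed, with fold changes of 52.9 and 41.1. Foxl2 stood at 27.8, 30.4 and 28.2 RPKM in brain EC with 1, 2 and 0 reads in the kidney EC libraries. Tbx1 was 23.1-fold and the nuclear receptor gene Ppard 6.68-fold higher in brain EC.

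Of the SoxF genes, which act in endothelium everywhere, Sox7 and Sox17 were higher in brain EC, by 0.59 and 0.53 on the log2 scale, and Sox18 stood at 266 ± 17.9 and 208 ± 19.9 RPKM (adjusted p = 0.0016, and 0.0006 with the replicate block). In kidney EC the homeobox genes Irx3 (8.29 ± 1.52 against 58.2 ± 8.06 RPKM) and Irx5 (1.42 ± 0.305 against 10.2 ± 1.91) and the basic helix-loop-helix gene Tcf15 (9.02 ± 1.72 against 56.1 ± 2.81) were higher, by 6.79-fold, 6.93-fold and 6.04-fold. All 3 were also above the kidney translatome, by 5.49-fold, 6.59-fold and 5.59-fold. Tbx2 was 19.7-fold higher in kidney EC than in brain EC but lay below its organ, at 0.451 of the kidney translatome.

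The Hox genes, which encode position along the body axis, had the largest median difference of the 14 lists, all of it on the kidney side. Of 37 tested, 34 were higher in kidney EC and 0 in brain EC with edgeR, beside 16.9% and 20.1% of all genes. The count in brain EC was also 0 at an unadjusted p under 0.05 and with DESeq2. In brain EC 21 of the 39 rows had no read, so the fitted median log2 fold change of -10.56 was -7.59 when those genes were held at the bound that 3 reads per library allow. Against their own organ, 23 Hox genes were lower in kidney EC and 1 was over 2-fold higher, beside 15.0% and 6.66% of all genes. For the 32 Hox genes with at least 1 RPKM in the kidney translatome, the median ratio of kidney EC to organ was 0.36, and 19 of them were above 0.269, the upper quartile of the nephron, ureteric and podocyte markers. By cluster the median ratio was 0.826 for 9 HoxA genes, 0.416 for 8 HoxB genes, 0.193 for 7 HoxC genes and 0.224 for 8 HoxD genes. Hoxa9 stood at 15.9, 17.0 and 16.0 RPKM in kidney EC and 21.7, 18.4 and 19.0 in the kidney translatome, and Hoxa5 was slightly above its organ, at 19.8 ± 1.86 against 16.9 ± 0.885 RPKM (log2 fold change 0.58, adjusted p = 0.00014). In contrast Hoxc10 was at 9.19 ± 1.07 RPKM in kidney EC and 92.3 ± 1.75 in the kidney translatome. No Hox gene was in the kidney endothelial list, which held 0.431% of all genes. Hoxd8, also higher in kidney EC (21.7 ± 1.03 RPKM), stood at 1.39, 1.34 and 1.80 RPKM in brain EC, 24.8-fold above a brain translatome that held only 0.0765 ± 0.0532 RPKM.

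Genes of fenestrae, caveolae and transcytosis were less uniform than Plvap alone. Of 13 genes, 2 were higher in brain EC and 6 in kidney EC (median log2 fold change -0.25), beside 20.1% and 16.9% of all genes. In each of the 2 ECs, 10 were over 2-fold above the organ, beside 14.7% of all genes in brain and 6.66% in kidney. Ehd3, a membrane-shaping ATPase gene of glomerular endothelium, was 5.11-fold higher in kidney EC (7.39 ± 1.01 against 39.0 ± 7.82 RPKM), and it was above the organ in kidney only (ratio 4.04 in kidney, 0.817 in brain, adjusted p of the difference 1.3e-08). Cav1, the main caveolin, was 1.58-fold higher in brain EC, and the cavin gene Sdpr 2.29-fold higher in kidney EC.

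In the list of scavenger, complement and leukocyte-contact genes, 9 of 18 were higher in kidney EC and 3 in brain EC. These compare with 16.9% and 20.1% of all genes, and the median log2 fold change of the list was -1.09. Fabp4, a fatty acid binding protein of capillaries, was the most abundant RNA of the kidney endothelial list and had its largest difference. It stood at 1099, 1060.1 and 1066 RPKM in kidney EC, while the brain EC libraries held 5, 5 and 6 reads of it. The kidney translatome libraries ranged widely, with 159, 211 and 335 RPKM, and the fold of kidney EC over it was 5.86. The hyaluronan receptor gene Stab2 (0.153 ± 0.0032 against 6.37 ± 1.11 RPKM), the lipase anchor gene Gpihbp1 (4.83 ± 1.01 against 43.8 ± 4.68) and the water channel gene Aqp1 (3.44 ± 0.266 against 34.3 ± 0.816) were higher in kidney EC too. Vwf, the von Willebrand factor gene, was 10.4-fold higher in brain EC, at 47.0, 45.0 and 52.2 RPKM against 3.34, 4.68 and 6.19.

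The vascular basement membrane differed as well. Of 18 genes, 9 were higher in kidney EC and 3 in brain EC (median log2 fold change -0.56), beside 16.9% and 20.1% of all genes. All 18 were over 2-fold above the brain translatome in brain EC (14.7% of all genes), against 11 in kidney (6.66%). The laminin chain gene Lama5 stood at 78.6, 63.5 and 82.4 RPKM in brain EC and 560.2, 532 and 578 in kidney EC (log2 fold change -2.85, SE 0.12, adjusted p = 6.6e-09). Perlecan (Hspg2) and agrin (Agrn), the main heparan sulfate proteoglycans of basement membranes, were 3.57-fold and 3.65-fold higher in kidney EC. Brain EC had more of the collagen-binding protein gene Sparc (2.29-fold) and of the integrin subunit genes Itga1 (4.83-fold) and Itga4 (7.03-fold).

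In the lists of vessel signalling genes lay on both sides, beside 20.1% and 16.9% of all genes higher in brain EC and in kidney EC. Of 20 Notch and arteriovenous genes, 5 were higher in brain EC and 6 in kidney EC (median log2 fold change 0.08). The arterial connexin gene Gja4 was 2.38-fold higher in brain EC and the arterial ligand gene Efnb2 1.68-fold higher in kidney EC. Of 15 tip cell and sprouting genes, 7 were higher in brain EC and 5 in kidney EC. Apln, the apelin ligand of sprouting cells, was 5.04-fold higher in brain EC (152 ± 18.0 against 31.2 ± 4.04 RPKM), whereas the tip cell gene Esm1 was 2.95-fold higher in kidney EC (12.1 ± 1.29 against 36.9 ± 0.736). Of 18 TGF-beta and BMP pathway genes, 5 were higher in brain EC and 4 in kidney EC. The receptor gene Acvrl1 was 2.73-fold and the ligand gene Bmp6 13.2-fold higher in brain EC.

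Outside these lists, the largest differences in the brain endothelial list were led by Myt1l, which encodes a zinc finger protein known from neurons. It stood at 593, 766 and 374 RPKM in brain EC and the kidney EC libraries held 4, 8 and 5 reads. The brain transcriptome had 40.6, 39.2 and 43.0 RPKM, the brain translatome 119, 97.7 and 94.8, and the translatome of the Emx1 lineage, which consists of neural cells of the dorsal telencephalon, 142, 153 and 142. Ptgds, a prostaglandin synthase gene also known from the meninges, stood at 415, 164 and 173 RPKM in brain EC, with the first library more than the other 2 together. The lipocalin gene Apod (133 ± 20.3 RPKM), the noncoding RNA Ipw (43.3 ± 12.1) and Csmd1 (8.04 ± 1.69) were among the 10 largest differences, as were Foxf2, Foxl2, Slco1c1 and Slc38a5. Besides Cldn5 and Slc7a5, the most abundant RNAs of the list were those of the helicase Ddx24 (1116 ± 85.5 RPKM), the secreted vascular protein Igfbp7 (916 ± 58.9) and the membrane protein Itm2a (789 ± 56.3).

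The brain list was also held against the Emx1-lineage libraries, which cover only part of the neural cells of the forebrain. Of the 203 genes, 139 were lower in the Emx1 lineage than in the brain translatome, 19 were higher and 45 were not called, while 12.8% of all genes tested were lower and 9.20% were higher. Of the 407 genes that were over 4-fold higher in brain EC but below the brain translatome, 95 were lower and 90 were higher in the Emx1 lineage. Igfbp7 was at 0.906 ± 0.183 RPKM in the Emx1 lineage and 65.9 ± 3.46 in the brain translatome, Foxf2 at 0.978 ± 0.103 and 13.6 ± 0.800. The 19 genes included Myt1l, Ipw, Csmd1 and the secreted neuronal glycoprotein gene Reln, which stood at 176 ± 48.6 RPKM in brain EC, 35.6 ± 1.87 in the brain translatome and 54.6 ± 1.95 in the Emx1 lineage. These RNAs were thus above the whole organ both in brain EC and in a neural lineage.

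Among the 10 largest differences of the kidney endothelial list, Fabp4 was followed by Nphs1, which encodes nephrin of the podocyte slit diaphragm, at 8.98, 8.47 and 6.45 RPKM in kidney EC and 3.31 ± 0.656 in the kidney translatome. The interferon-induced gene Rsad2 (0.271 ± 0.101 against 48.9 ± 6.47 RPKM), the ubiquitin ligase gene Neurl3 (0.328 ± 0.0149 against 35.3 ± 7.21), Cldn15, the cardiac actin gene Actc1 (8.95, 30.9 and 12.9 RPKM in the kidney EC libraries), 3110099E03Rik (6.01 ± 0.541), the periplakin gene Ppl (5.00 ± 0.951), Stab2 and the butyrophilin-like gene Btnl9 (13.8 ± 1.15) completed them. The most abundant RNAs besides Fabp4, Lama5 and Plvap were those of the elastic fibre protein Emilin1 (531 ± 68.0 RPKM) and the annexin partner S100a10 (505 ± 40.5). Markers of other cells were counted beside 16.9% of all genes higher in kidney EC and 20.1% higher in brain EC. Mural cell markers moved with the kidney side. Of 12, 8 were higher in kidney EC and 0 in brain EC with edgeR (1 at an unadjusted p under 0.05, 0 with DESeq2), and their summed level was 45.7 to 53.3 RPKM in brain EC and 149 to 167 RPKM in kidney EC. The proteoglycan gene Cspg4 and the channel subunit gene Abcc9, 2 of these markers, were also 3.98-fold and 2.16-fold above the kidney translatome and so in the kidney endothelial list. Kidney stromal markers summed to 177 to 279 RPKM in brain EC and 423 to 600 in kidney EC, with 7 of 10 higher in kidney EC and 3 higher in brain EC. Macrophage and microglia markers moved with the brain side, with 8 of 12 higher in brain EC, 0 higher in kidney EC with edgeR (0 at an unadjusted p under 0.05 and with DESeq2), and sums of 39.6 to 41.5 and 10.9 to 11.9 RPKM. The complement gene C1qa, for example, was at 5.35 ± 0.427 RPKM in brain EC, 10.6 ± 0.844 in the brain translatome and 0.805 ± 0.0647 in kidney EC. In red blood cell markers, 2 of 9 tested were higher in brain EC, and 5 further rows of adult globin genes had no read in any EC library. The part of these cells in the organ differences was not tested.

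Some of the largest differences between the ECs were in genes that lay below their own organ. On the brain side these included the neural factor genes Neurod2, Neurod6, Zic4 and Nhlh2. Neurod2 stood at 23.3, 20.6 and 13.5 RPKM in brain EC and 122 ± 2.25 in the brain translatome and had no read in kidney EC, so it was at least 783-fold higher in brain EC by a floor of 3 reads per library. Neurod6 was at least 631-fold higher by the same floor, with a ratio to its organ of 0.104, the lowest of the neural markers. On the kidney side they were all Hox genes. Hoxa10 was at 27.5, 28.1 and 27.8 RPKM in kidney EC and had no read in brain EC, at least 1035-fold lower there, and its ratio to the kidney translatome was 0.221. For Hoxb8, Hoxd11, Hoxc10 and Hoxb6 the bounds were at least 1028-fold, 599.5-fold, 333-fold and 264-fold lower in brain EC.

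Each difference was finally tested against its organ as an interaction, the log2 ratio of EC to organ in brain minus that in kidney. Of 19764 genes, 3258 (16.5%) had a higher ratio in brain and 1700 (8.60%) a higher ratio in kidney, and the median over all genes was 0.155. With DESeq2 the counts were 3410 and 2735. In the brain endothelial list, 177 of 203 genes had a higher ratio in brain, 26 were not called and 0 had a higher ratio in kidney (0 also at an unadjusted p under 0.05 and with DESeq2). The rule for the list already favours a higher ratio in brain. In the kidney endothelial list, 30 of 83 genes had a higher ratio in kidney, 40 were not called and 13 had a higher ratio in brain, Plvap among them (1.26, SE 0.14). The whole organs differed in the same direction as the ECs for 117 of the 203 brain list genes and in the opposite direction for 32, and for 71 and 2 of the 83 kidney list genes, while 27.2% of all genes were higher in the brain translatome and 26.2% in the kidney translatome. In kidney, 51 of the 203 brain list genes were lower in EC than in the kidney translatome, 36 of them with at least 5 RPKM in that translatome. Another 58 were higher in kidney EC than in that translatome. Among all genes, 15.0% were lower and 16.7% were higher. The ratio itself has a different ceiling in the 2 organs, since 23 of the 24 pan-endothelial genes had a higher ratio in brain, by a median of 1.62 on the log2 scale. Such a ratio also depends on the share of ECs in each organ, which was not measured here. A higher ratio in brain therefore need not mean more of an RNA per EC.

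**Figure D5:**
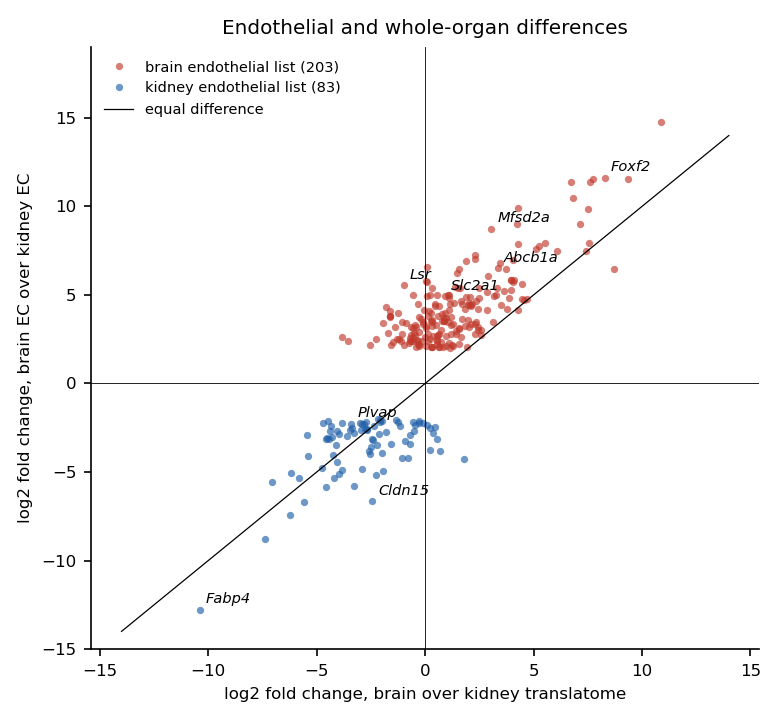
Log2 fold change of brain EC over kidney EC (vertical) against that of brain over kidney translatome (horizontal) for the 203 brain endothelial list genes in red and the 83 kidney endothelial list genes in blue, with a line where both are equal. Slc2a1, Lsr and most red points lie above the line, and Plvap lies to its left, where the whole organs differ more than the ECs.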

How the data were processed

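TruSeq RNA kit v2 libraries were aligned by the authors with RUM 2.04 on GRCm38 (mm10), and rpkmforgenes assigned reads to the UCSC refGene annotation. The deposited files give, for each of 23827 rows, the raw read count and the RPKM (scaled by transcript length and library size by the authors). No strand setting is given in the sources used here, so reads of overlapping genes cannot be told apart, and 392 rows that repeat a symbol and accession were kept as they are. In repeated genes a number after the symbol tells the rows apart.

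The test was the two-sided quasi-likelihood F test of edgeR 4.0.16 (R 4.3.3, TMM factors, all genes with 1 or more reads in the fitted samples) with Benjamini-Hochberg adjustment over all genes of a comparison, 3 samples against 3, and the interaction in 1 fit of 12. The threshold was 0.001. The endothelial lists needed a fold change over 4 between ECs, a mean of at least 5 RPKM and a fold change over 2 above the own-organ translatome. The carry-over share is the median ratio of mean RPKM in EC to that in the organ translatome over markers with at least 5 RPKM in the latter. Bounds for genes without reads in a group use 3 reads per library and cover counting error only. Tested on data simulated with the depths and mean levels of the EC libraries (18925 genes), the fit found 16 of 50 genes changed 1.5-fold, 49 of 50 changed 2-fold and all 50 at each of 4-fold and 8-fold, with 1 false call among 18725. Changed genes were drawn only from those with an expected count of at least 50, and all genes shared the same dispersion. Far fewer genes were changed than differed between the ECs, so genes with few reads or a wide spread are not covered. Total counts were 30546034 to 45773518 in the brain translatome and 21760652 to 24605124 in the kidney translatome, and precision is given as the SD of 3 libraries or the standard error of a fit.

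Brain EC and kidney EC libraries with the same number deviated together from their group means (Pearson's r over 13592 genes 0.20 to 0.31, against -0.23 to -0.05 for different numbers). The numbers come from the titles, and the organs were not said to come from the same embryos. The study and its lists were known, with earlier results of these data, when the members, gene lists and tests were chosen. Genes were named as members of the 14 gene lists and 7 marker lists, and by rank: the 10 largest differences and 5 highest levels of each endothelial list, and the 5 largest differences below the own organ. Reln, and the genes of the closing observations, were picked after their values were seen. Some genes that the rule names are not reported here. Alternatives were DESeq2 1.42.0, RLE factors, total counts, at least 10 counts in 3 samples, 1 fit of all 21 samples, the replicate block, each EC library left out, and for the lists other RPKM minimums, the transcriptomes as references, a fold over 4 above the organ, RPKM folds with a pseudocount of 0.1, and RPKM folds after subtraction of the carry-over share. Coordinates and promoter windows are from RefSeq on GRCm38.p6. Figures were drawn with matplotlib.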

Additional observations from a re-analysis of the deposited data

Results flagged for a closer look

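The ratio of EC to own organ was tested as a difference between brain and kidney, and 3258 genes had a higher ratio in brain and 1700 a higher ratio in kidney at an adjusted p under 0.001 (edgeR). Among the genes named above, 10 were higher in kidney EC than in brain EC and yet had a higher ratio to their own organ in brain. The interaction on the log2 scale was 1.26 for Plvap, 1.43 for Emcn, 2.89 for Fzd4, 5.24 for Hoxd8, 1.25 for Lama5, 1.80 for Hspg2, 1.16 for Esm1, 1.56 for Emilin1, 2.01 for Rnf43 and 1.48 for Ccnd1. A higher ratio in brain was common to ECs genes, with 23 of 24 pan-endothelial genes called and a median of 1.62. Only Fzd4, Hoxd8, Hspg2 and Rnf43 lay above that median.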

How the results depend on the processing

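Under the alternatives run, both endothelial lists kept most of their genes: the brain list held 139 to 292 genes and the kidney list 50 to 114. After subtraction of the carry-over share the brain list held 206 genes, 183 of them shared with the 203 above, and the kidney list 78 with 69 shared. Requiring a fold over 4 above the organ left 50 genes of the kidney list. Requiring lower levels in the Emx1 lineage, chosen after seeing the data, left 139 genes of the brain list. With each EC library left out in turn, 3324 to 3709 genes were higher in brain EC and 2562 to 2974 in kidney EC, the brain list held 201 to 207 genes and the kidney list 82 to 85. At an adjusted p under 0.05, also chosen after seeing the data, 5864 and 5605 genes were higher in brain EC and kidney EC. Total counts without a composition factor changed the comparison of kidney EC with the kidney translatome from 3163 higher and 2837 lower genes to 1564 and 5655, and that of brain EC with the brain translatome from 4740 and 4084 to 3397 and 6002. With DESeq2, 2735 genes had a higher ratio to the organ in kidney. The cause of these changes was not tested. Of 116 named genes, 112 kept their direction and their side of the threshold between the ECs under every alternative fit, Gpr124, Ctnnb1 and Sox18 passed the threshold only in some of them, and Pecam1, which did not pass in any, went from a log2 fold change of -0.11 to 0.0091 in 1 fit of all 21 samples. That fit moved the median of all genes by 0.12 on the log2 scale. The replicate block gave 3727 and 3153 genes higher in brain EC and kidney EC and lists of 205 and 83, and it changed no call of a named gene besides those of Gpr124 and Sox18. Genes with a few reads in the lower group have levels there that rest on those reads, and the fit found fewer changes of 1.5-fold than larger ones in simulated data.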

Other observations

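In 32 genes of the brain endothelial list the whole organs differed in the opposite direction, with more RNA in the kidney translatome than in the brain translatome. Slc7a8, an amino acid transporter gene, stood at a mean of 61.6 RPKM in brain EC, 1.96 in kidney EC, 6.49 in the brain translatome and 11.1 in the kidney translatome. The prostacyclin synthase gene Ptgis was at 51.6 RPKM in brain EC and 3.13 in kidney EC, against 7.15 and 25.2 in the brain and kidney translatomes. For the vitamin A receptor gene Stra6 these 4 means were 27.6, 3.08, 6.60 and 19.6 RPKM. The selenoprotein gene Sepp1 was at 730.4 RPKM in brain EC and 83.9 in kidney EC, and at 87.7 and 135 in the translatomes. In the kidney endothelial list, the guidance gene Flrt3 (4.40 RPKM in brain EC, 24.6 in kidney EC, 12.3 in the brain translatome, 10.3 in the kidney translatome) and the muscle actin gene Acta1 (0.303, 6.22, 1.59 and 0.52 RPKM in the same order) were the 2 genes of this kind. These genes were chosen after their values were seen.

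The 19 genes of the brain endothelial list that were higher in the Emx1 lineage than in the brain translatome were Cacna1e, Cdh2, Csmd1, Dmxl2, Fat3, Htra1, Ipw, Kalrn, Myt1l, Pclo, Pcp4l1, Phf8, Ptgfrn, Reln, Ryr2, Ryr3, Sorbs2, Tnfrsf19 and Tnik. They include calcium channel genes (Cacna1e, Ryr2, Ryr3), a presynaptic scaffold gene (Pclo) and adhesion genes (Cdh2, Fat3). Their enrichment in brain EC over the brain translatome ranged from a log2 fold change of 1.07 for Cacna1e to 3.18 for Phf8, and their difference between the Emx1 lineage and the brain translatome from 0.28 to 0.67. Myt1l had the highest level among them in brain EC, at 578 RPKM.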
